A study of Mus musculus with 18 samples.

Results

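The left ventricle (LV) and right ventricle (RV) of mouse hearts stored for 8 h were compared in 6 of the 18 RNA sequencing libraries of the series, LV_8h replicates 1 to 3 and RV_8h replicates 1 to 3, chosen by the ventricle, storage time and replicate number in their labels. The series asked how cold storage of donor hearts followed by reperfusion changes RNA in each ventricle, and its other 12 libraries are LV and RV after 0 and 4 h. All hearts came from wild type mice of the strain given as C57B/L6, aged 12 weeks by the labels. Each heart was flushed with HTK, a preservation solution, was kept in it on ice for the storage time (the 0 h hearts went straight to perfusion), and was then perfused outside the body with Krebs buffer for 1 h before the ventricles were frozen. Storage and perfusion were thus common to both groups, the perfusate held no blood, and no unperfused heart was among the libraries. LV and RV tissue was taken at the end of perfusion, yet neither the methods nor the labels say that a replicate number names a heart. The methods describe mice of both sexes and a pressure balloon placed first in the RV and later in the LV while the heart was perfused, without saying whether the sequenced hearts were among those. The samples were ventricular tissue with all its cells, in which fewer cells of a type and less RNA per cell cannot be told apart.

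The LV ejects blood into the systemic circulation at high pressure and the RV into the lungs at low pressure, and the chambers arise from separate progenitor fields in the embryo. Adult chambers keep a modest difference in transcription factors (Hand and Irx family members among them), in natriuretic peptides, which rise with wall stress, and in ion channels. Tissue that is rewarmed and reoxygenated turns on immediate-early genes, such as Fos and Egr family members, within minutes, NF-kB targets such as cytokines and adhesion molecules soon after, and interferon-induced genes later, once secreted signals act on neighbouring cells. The RNA levels below were measured 1 h after the start of reperfusion.

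The 6 libraries held 22552581 to 32446175 estimated counts, and transcripts of the mitochondrial genome took 32.0% to 34.4% of them. Levels are CPM, counts scaled to the TMM-adjusted library size, and differences are log2 of LV over RV, so that negative values were higher in RV. All 10 ventricular cardiomyocyte markers were detected in every library and summed to 49430, 55260 and 45510 CPM in LV against 49120, 60150 and 31160 in RV for replicates 1, 2 and 3, in that order here and below. RV replicate 3 was the lowest of the 6 in cardiomyocyte RNA. Libraries with the same number departed jointly from their group means. Their correlation across genes was 0.53, 0.57 and 0.70, against -0.54 to 0.16 between different numbers. The Y-linked gene Ddx3y stood at 67.4, 77.7 and 2.44 CPM in LV and at 96.4, 97.3 and 1.56 CPM in RV, so that number 3 was alike in both ventricles. Eif2s3y, also Y-linked, stood at 40.8, 45.45 and 1.15 CPM in LV and at 40.5, 46.4 and 0.667 CPM in RV. Numbers 1 and 2 thus read as male and number 3 as female, and other departures of number 3 cannot be told apart from sex. The pairing is inferred from these values alone, and the Y-linked genes do not tell numbers 1 and 2 apart. Same-numbered libraries are called a heart from here on, and a fit with the heart as a block is given beside the unpaired fit. Heart 3 stood apart in the interferon-induced genes, whose sum was 4431, 5465 and 28070 CPM in LV against 5588, 8688 and 40230 in RV. RV replicate 1 stood apart in atrial cardiomyocyte markers (Myl7, Nppa, Sln and others), with 384, 292 and 351 CPM in LV against 881, 156 and 261 in RV. Results that rest on these libraries are given with and without them. Nothing in the labels says that replicates came from separate hearts. The chi-square per gene between the counts of 2 replicates of a group was 36.9 to 296.5, well above counting noise alone. The Y-linked genes also set number 3 apart. The p-values measure the spread between these samples, taken here as separate hearts.

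After 8 h the RV held more RNA of immediate-early genes and of NF-kB and TNF response genes than the LV of the same heart, and the LV held more of Acta1, Nppb, Ptgds and Bdh1. Most of these calls needed the pairing of ventricles by heart. Without the block, edgeR's quasi-likelihood test called 2 genes higher in LV and 3 higher in RV among 15093 tested, which is 0.0133% and 0.0199%. A gene counts as called where its Benjamini-Hochberg adjusted p was below 0.1 with a fold above 1.5. All 5 had an adjusted p of 0.0933, and 1669 genes had an unadjusted p under 0.05. With the heart as a block the same test called 339 genes higher in LV (2.25%) and 986 higher in RV (6.53%). The difference between the fits is one of design, since the unpaired fit sets the ventricles against the spread between hearts and the blocked fit against the spread within them. Of the blocked calls, 303 of the 339 and 939 of the 986 had the same direction in all 3 hearts, and in 143 and 389 the 3 LV libraries did not overlap the 3 RV libraries. Over all 15093 genes, called or not, every LV library lay above every RV library for 779 and below for 897. The changes were mostly modest, with a median fold of 1.72 for the genes higher in LV and 1.78 for those higher in RV, and 108 and 282 genes reached 2-fold. Leaving out hearts 1, 2 and 3 in turn gave 242, 471 and 468 genes higher in LV. Toward RV it gave 618, 1030 and 1096.

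**Figure D1:**
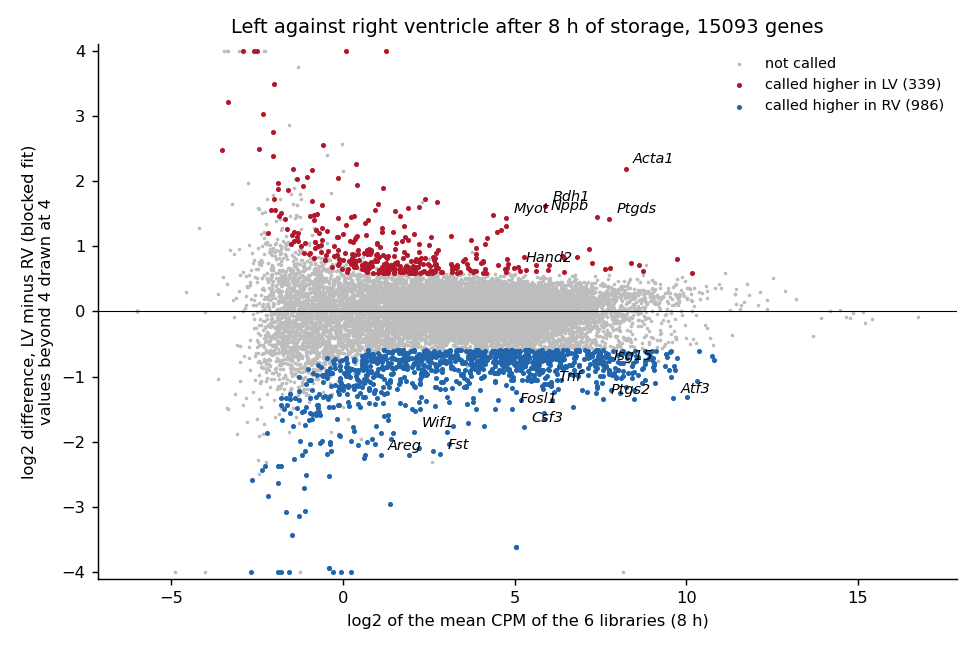
Each point is 1 of 15093 genes, with the log2 of its mean CPM over the 6 libraries of 8 h on the x axis and the log2 difference LV minus RV of the blocked fit on the y axis. The 339 genes called higher in LV are red and the 986 called higher in RV are blue; Acta1 lies highest among the labelled genes and Areg and Fst lie lowest.

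The 5 genes that passed without pairing were Ptgds and Bdh1, higher in LV, and Plagl1, Wif1 and Flrt3, higher in RV. In parentheses after the levels of a gene stand its log2 difference ± SE of the blocked fit and the adjusted p with and without the block. Ptgds (ENSMUSG00000015090.13, GRCm38 chromosome 2, 25466709 to 25470046), the prostaglandin D2 synthase gene, read 326, 284 and 331 CPM in LV against 131, 87.7 and 139.6 in RV (1.42 ± 0.14, edgeR adjusted p = 0.000237 and 0.0933). Bdh1 (ENSMUSG00000046598.15, GRCm38 chromosome 16, 31422280 to 31458901), which encodes a mitochondrial enzyme that interconverts ketone bodies, read 108, 87.7 and 71.4 CPM in LV against 38.1, 29.4 and 20.9 in RV (1.62 ± 0.10, edgeR adjusted p = 3.81e-05 and 0.0933). Every LV library lay above every RV library for both genes. Plagl1, an imprinted zinc finger gene, stood at 6.29, 6.61 and 10.7 CPM in LV against 17.98, 14.9 and 26.1 in RV (-1.33 ± 0.13, edgeR adjusted p = 0.000249 and 0.0933). Wif1, a secreted inhibitor of Wnt signalling, stood at 1.14, 2.37 and 1.96 CPM in LV against 5.95, 9.69 and 4 in RV (-1.85 ± 0.23, edgeR adjusted p = 0.000538 and 0.0933). Flrt3, a membrane protein of cell adhesion, stood at 0.463, 0.678 and 0.814 CPM in LV against 3.68, 2.58 and 1.63 in RV (-2.01 ± 0.34, edgeR adjusted p = 0.00222 and 0.0933). The 3 RV-higher genes also did not overlap between the ventricles. Ptgds, Bdh1, Plagl1 and Wif1 were also called in the 0 h hearts with the block, at 1.45, 1.29, -0.79 and -2.23, whereas Flrt3 differed by -0.33 at 0 h and was not called there, and the change in its ventricle difference was -1.68 (edgeR adjusted p = 0.0833). The unpaired calls rested on the setting: none of the 5 remained when the 8 h libraries were fitted alone.

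Immediate-early genes, the first transcripts a stimulus induces, had the largest share of called members among the 17 lists. In the blocked fit 37 of 40 were higher in RV and none in LV, with a median difference of -0.91, against 6.53% of all genes and a median of 0.02. All 40 had a negative sign, and only Dusp8, Rgs1 and Sik1 were not called. Without the block edgeR called none of the 40 at an adjusted p under 0.1, DESeq2 called 6, and 23 had an unadjusted edgeR p under 0.05. For 21 members every RV library lay above every LV library, as for 897 of the 15093 genes tested.

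The AP-1 subunit gene Fosl1 had the largest difference of the list, at 17.1, 8.51 and 23.4 CPM in LV against 58.2, 26.4 and 49.3 in RV (-1.49 ± 0.18, edgeR adjusted p = 0.000529 and 0.561). Atf3, a stress-induced transcription factor of the ATF/CREB family, stood at 253, 307 and 939 CPM in LV against 929, 899 and 1386 in RV (-1.33 ± 0.20, edgeR adjusted p = 0.00128 and 0.42). LV replicate 3 carried as much Atf3 as RV replicates 1 and 2, so that the groups overlapped while each heart had more in its RV. The zinc finger factor Egr3 read 32.5, 31.5 and 53.2 CPM in LV against 95.1, 96.2 and 102 in RV (-1.36 ± 0.17, edgeR adjusted p = 0.000541 and 0.327), with RV libraries close together and all above LV. The orphan nuclear receptor Nr4a2 read 8.82, 10.7 and 20.1 CPM in LV against 30.6, 27.2 and 38.9 in RV (-1.35 ± 0.18, edgeR adjusted p = 0.0007 and 0.256). Other AP-1 subunits were also called, with means of 549 CPM (LV) and 902 CPM (RV) for Fos (-0.90), 659 and 1397 for Fosb (-1.32), and 534 and 970.2 for Jun. So were feedback regulators of the same response, among them the MAP kinase phosphatase genes Dusp1 (-0.79), Dusp5 (-1.13) and Dusp6 (-1.11) and the mRNA decay factor Zfp36 (-0.91). The Kruppel-like factor Klf4 differed by -1.25 (edgeR adjusted p = 0.000681), and Klf6 by -1.02 (edgeR adjusted p = 0.000291).

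Heart 3 showed the smallest difference of this group: the median within a heart was -1.27, -1.17 and -0.45 for hearts 1, 2 and 3. Without heart 3, 37 members were called and the median was -1.17. Without heart 2, 33 were called, and without heart 1, 23, with a median of -0.79. The summed level of the list was 5275, 5920 and 12920 CPM in LV against 13140, 13770 and 17740 in RV, so that LV replicate 3 came close to the RV libraries.

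**Figure D2:**
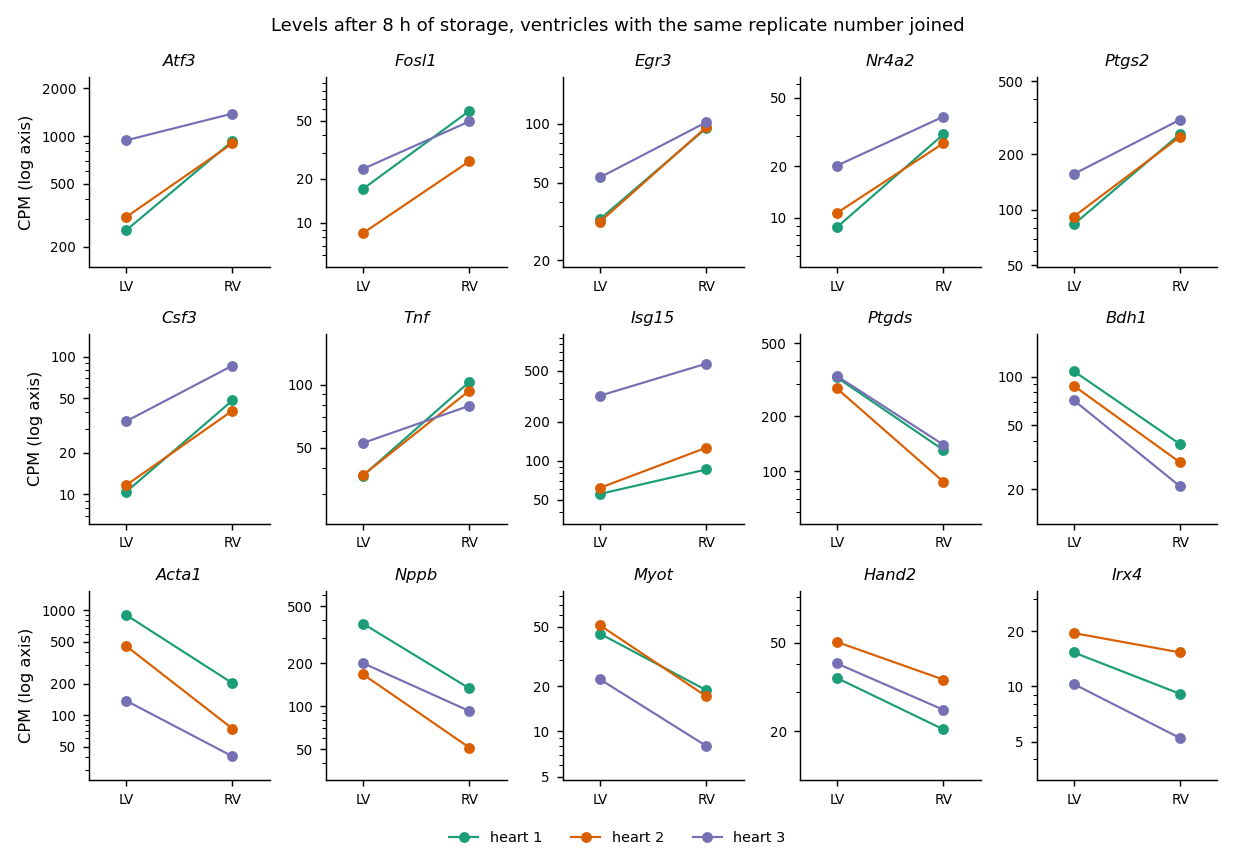
CPM on a log axis of 15 genes in LV and RV after 8 h, with the libraries of a heart joined by a line. Atf3, Fosl1, Egr3, Nr4a2, Ptgs2, Csf3, Tnf and Isg15 rise from LV to RV in each heart, with heart 3 highest in both ventricles for Isg15, and Ptgds, Bdh1, Acta1, Nppb, Myot, Hand2 and Irx4 fall from LV to RV in each heart.

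Promoter sequence was read from RefSeq windows of GRCm38.p6 for 30 of the 40 immediate-early genes, as 250 bases before each start site, and both strands were searched. The serum response element core, the CArG box, was found in 6 of 39 windows of the list and in 1.47% of all 32851 windows. The cAMP response element TGACGTCA was found in 4 of 39 and in 1.55% of all windows, and the AP-1 site TGANTCA, which that octamer does not contain, in 1 of 39 and 6.75%. The windows of Zfp36 (chr7:28379229-28379478, minus strand) and Dusp1 (chr17:26508473-26508722, minus strand) are shown because each holds 1 of these elements and both genes were higher in RV; capitals mark the CArG box in the former and the cAMP response element in the latter, and both run 5′ to 3′ on the strand of the gene.
Zfp36: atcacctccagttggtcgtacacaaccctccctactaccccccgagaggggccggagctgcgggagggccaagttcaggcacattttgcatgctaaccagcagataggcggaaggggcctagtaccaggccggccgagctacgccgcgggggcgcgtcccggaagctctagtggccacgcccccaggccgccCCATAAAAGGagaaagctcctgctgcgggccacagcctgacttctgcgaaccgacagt
Dusp1: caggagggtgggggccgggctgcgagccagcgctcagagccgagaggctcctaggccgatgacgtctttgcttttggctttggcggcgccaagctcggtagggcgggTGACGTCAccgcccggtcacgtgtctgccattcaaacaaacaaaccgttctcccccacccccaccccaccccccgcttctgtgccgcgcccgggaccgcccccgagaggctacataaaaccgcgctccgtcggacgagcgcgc

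NF-kB and TNF response genes were higher in RV as well. In the blocked fit 35 of 52 passed toward RV (67.3%, against 6.53% of all genes) and none toward LV, with a median of -0.71. All 52 had a negative sign. Without the block edgeR called none, DESeq2 called 2, and 12 had an unadjusted edgeR p under 0.05. Leaving out heart 1 cut the blocked calls to 18 (median -0.54), and leaving out hearts 2 and 3 left 35 and 42.

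Among secreted signals of this list, the granulocyte growth factor gene Csf3 read 10.4, 11.6 and 33.9 CPM in LV against 48.2, 40.6 and 86.3 in RV (-1.77 ± 0.16, edgeR adjusted p = 0.000211 and 0.279). Interleukin 1 alpha, Il1a, read 7.09, 6.1 and 9.05 CPM in LV against 44.02, 22.8 and 13.5 in RV (-1.76 ± 0.33, edgeR adjusted p = 0.0036 and 0.44). The interleukin 6 family cytokine Lif read 22.3, 10.8 and 31.3 CPM in LV against 59.5, 38.3 and 57.9 in RV (-1.36 ± 0.19, edgeR adjusted p = 0.000761 and 0.379). For these 3 genes each RV library exceeded each LV library. The prostaglandin synthase gene Ptgs2 read 83.5, 91.99 and 157 CPM in LV against 259, 250.0 and 309 in RV (-1.35 ± 0.13, edgeR adjusted p = 0.000237 and 0.279), again with no overlap. Of the chemokine genes, which draw neutrophils and monocytes, Cxcl1 differed by -0.82, Cxcl2 by -1.21, Ccl3 by -1.05 and Ccl7 by -0.81. Of the adhesion molecules of activated endothelium, P-selectin (Selp) differed by -1.34, Icam1 by -0.74, Vcam1 by -0.64 and E-selectin (Sele) by -0.60. The subunits and inhibitors of NF-kB itself were higher in RV as well, with -0.70 for Nfkb1, -0.69 for Rela, -0.75 for Rel, -0.72 for Nfkbia and -0.85 for Tnfaip3, all called with the block.

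Promoter windows were found for 38 genes of this list. The NF-kB consensus decamer was present in 17 of 44 windows, against 7.25% of all windows, and the AP-1 site in 8 of 44, against 6.75%. Most other lists also exceeded 7.25% for the decamer, among them ventricular sarcomere genes (7 of 28), clock genes (3 of 21) and heat-shock chaperones (5 of 39). Fatty acid oxidation, potassium channel and ribosomal protein genes did not. The windows of Lif (chr11:4257318-4257567, plus strand), which holds both, and of Areg (chr5:91139349-91139598, plus strand), an epidermal growth factor receptor ligand gene that was higher in RV and holds a cAMP response element, are given on the strand of the gene with these elements in capitals.
Lif: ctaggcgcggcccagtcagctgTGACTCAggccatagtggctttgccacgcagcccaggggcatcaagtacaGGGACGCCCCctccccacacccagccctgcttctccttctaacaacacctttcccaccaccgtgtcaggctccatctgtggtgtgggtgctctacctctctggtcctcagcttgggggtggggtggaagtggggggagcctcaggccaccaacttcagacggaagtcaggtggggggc
Areg: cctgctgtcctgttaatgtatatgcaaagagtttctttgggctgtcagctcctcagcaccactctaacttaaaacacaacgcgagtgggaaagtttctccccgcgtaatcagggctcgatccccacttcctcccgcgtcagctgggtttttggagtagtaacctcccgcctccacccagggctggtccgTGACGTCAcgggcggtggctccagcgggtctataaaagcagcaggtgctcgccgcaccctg

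The genes of the proteins that the study measured by western blot, cytokines and parts of the inflammasome among them, were tested as a list. In the blocked fit 6 of the 11 were higher in RV (54.55%, against 6.53% of all genes) and none was higher in LV. Without the block none was called by edgeR or DESeq2 (unadjusted edgeR p under 0.05 for 0 of 11). Tnf read 36.6, 36.8 and 52.6 CPM in LV against 103, 93.9 and 79.4 in RV (-1.15 ± 0.16, edgeR adjusted p = 0.000676 and 0.454) without overlap. Il1b read 27.7, 21.8 and 23.6 CPM in LV against 71.4, 46.05 and 25.2 in RV (-0.87 ± 0.23, edgeR adjusted p = 0.019 and 0.513), and the ventricles of heart 3 were nearly alike. Il6 read 194, 153 and 258 CPM in LV against 339, 247 and 367 in RV (-0.67 ± 0.21, edgeR adjusted p = 0.0378 and 0.599). The chemokine gene Ccl2, which encodes MCP1, read 227, 190.5 and 371 CPM in LV against 469, 351 and 504 in RV (-0.79 ± 0.13, edgeR adjusted p = 0.00168 and 0.614). Myd88, the adaptor of Toll-like and interleukin 1 receptors, read 54.2, 52.3 and 131 CPM in LV against 99.1, 75.8 and 188 in RV (-0.64 ± 0.08, edgeR adjusted p = 0.000541 and 0.646). In each of these 3 genes 1 LV library, replicate 3, reached into the range of RV. The inflammasome sensor Nlrp3 read 18.4, 19.6 and 19.6 CPM in LV against 38.2, 42.6 and 22.6 in RV (-0.81 ± 0.19, edgeR adjusted p = 0.0116 and 0.571). The other 5 were below the fold or p threshold, among them Gsdmd at -0.48 (edgeR adjusted p = 0.00351), Casp1 at -0.36 (edgeR adjusted p = 0.0217), Pycard, which encodes the adaptor ASC, at -0.10 (edgeR adjusted p = 0.649), and Il10, with 0.833, 1.25 and 0.479 CPM in LV against 2.01, 1.33 and 0.556 in RV, at -0.58 (edgeR adjusted p = 0.23). Without heart 1 only 3 of the 11 were called, and Il1b, Il6 and Myd88 were not.

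Interferon-induced genes, which amplify antiviral and inflammatory signals, had a smaller share called, and heart 3 carried the highest level in both ventricles. Of 74 genes, 15 were called higher in RV with the block (20.3%, against 6.53% of all genes) and none higher in LV. The median was -0.45, with a negative sign in 73. Without the block no member was called by edgeR or DESeq2, and none had an unadjusted edgeR p under 0.05. The antiviral ubiquitin-like modifier Isg15 read 55.2, 61.6 and 319 CPM in LV against 85.5, 126 and 566 in RV (-0.83 ± 0.08, edgeR adjusted p = 0.000237 and 0.753). The guanylate-binding protein gene Gbp2 read 138, 169 and 1181 CPM in LV against 229.5, 355 and 1942 in RV (-0.84 ± 0.11, edgeR adjusted p = 0.00061 and 0.813). In both genes every heart had more in RV while the groups overlapped. Oasl1 (-0.77) and Igtp (-0.78) followed the same pattern, Igtp under the fold threshold without heart 1. Without RV replicate 3 the unpaired differences of Isg15, Gbp2, Oasl1 and Igtp were 0.47, 0.78, 0.57 and 0.57, the opposite direction. Leaving out hearts 1, 2 and 3 from the blocked fit left 22, 8 and 12 calls and medians of -0.55, -0.34 and -0.42. Reads that fit several members of the Ifit, Oas, Gbp and Irg families had been divided between them by the quantification, so single members of these families are less certain.

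**Figure D3:**
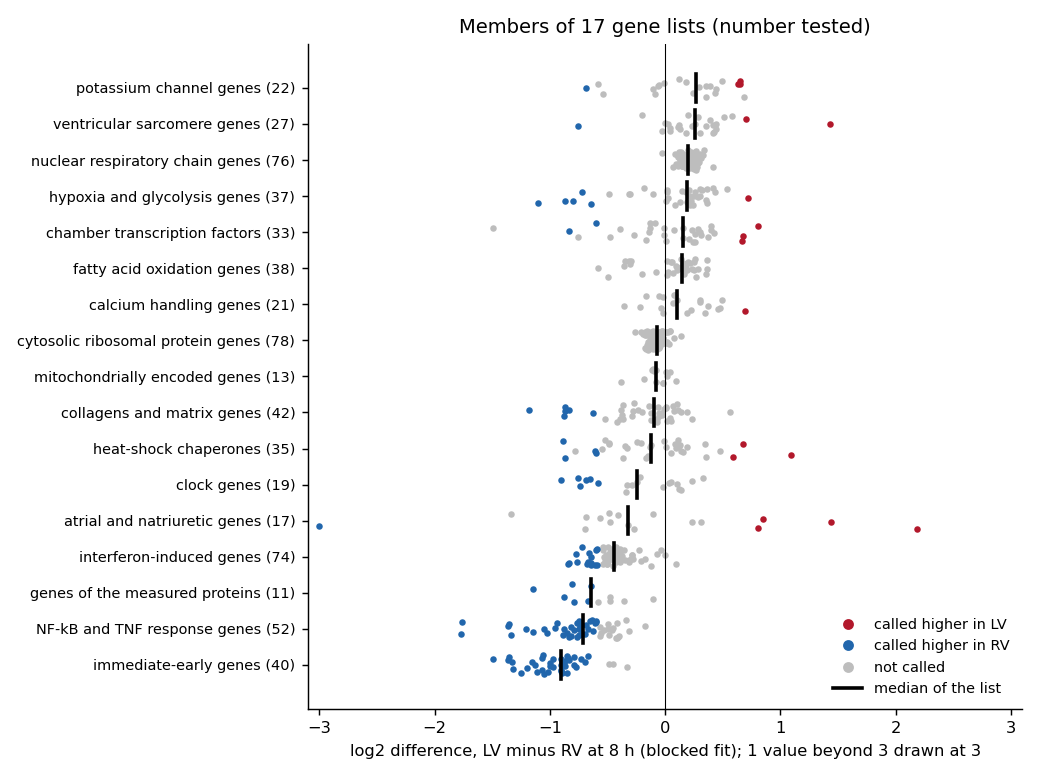
Log2 difference LV minus RV after 8 h in the blocked fit for the members of 17 gene lists, 1 point a gene, with the median of each list as a black bar and the number tested in brackets. Nearly all immediate-early (37 of 40) and most NF-kB and TNF response genes (35 of 52) are called toward RV, whereas fatty acid oxidation, respiratory chain, ribosomal and mitochondrially encoded genes hold no call; Bmp10 lies beyond the axis and is drawn at its edge.

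Chamber transcription factors were called in both directions. Of 33 tested, 3 were called higher in LV (9.09%) and 2 higher in RV (6.06%) with the block, against 2.25% and 6.53% of all genes, and the median was 0.15. Hand2, a basic helix-loop-helix factor of the developing heart, read 34.7, 50.4 and 40.4 CPM in LV against 20.4, 34.1 and 24.97 in RV (0.67 ± 0.09, edgeR adjusted p = 0.000681 and 0.316). The Iroquois factors Irx5 and Irx4, regulators of ventricular repolarization and ventricular identity, read 6.35, 5.63 and 4.79 CPM in LV against 2.91, 3.16 and 3.59 in RV (0.80 ± 0.17, edgeR adjusted p = 0.00765 and 0.201) and 15.3, 19.5 and 10.3 CPM in LV against 9.09, 15.3 and 5.22 in RV (0.66 ± 0.11, edgeR adjusted p = 0.0016 and 0.451). Hey2, a Notch target that marks compact ventricular myocardium, read 2.1, 2.41 and 2.3 CPM in LV against 3.54, 4.84 and 3.78 in RV (-0.83 ± 0.15, edgeR adjusted p = 0.00303 and 0.248), with all RV libraries above LV. Foxp1 was the other factor higher in RV, at -0.60 (edgeR adjusted p = 0.00112). Tbx5 read 11.6, 15.4 and 14.7 CPM in LV against 20.1, 19.7 and 10.9 in RV (-0.27 ± 0.16, edgeR adjusted p = 0.261 and 0.689) and did not pass. Hand1 read 0, 0.0678 and 0 CPM in LV against 0, 0 and 0 in RV, too low to be tested. The differences of Irx5 and Hey2 at 0 h were called as well (0.77 and -0.77), whereas those of Hand2 and Irx4 were not (-0.16 and 0.04) and their differences moved by 0.83 (edgeR adjusted p = 0.0035) and 0.62 (edgeR adjusted p = 0.0256). Without heart 3 the Irx4 difference was 0.55, under the fold threshold.

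Of 17 atrial and natriuretic genes, a list that also holds genes of the fetal programme, 4 were called higher in LV (23.5%, against 2.25% of all genes) and 1 higher in RV (5.88%, against 6.53%). The 4 were Acta1, Nppb, Myh7 and Ankrd1 and the other was Bmp10. The signs of the list went the other way, with 11 of 17 negative and a median of -0.33, or 0.35 without heart 1. Skeletal alpha-actin, Acta1, stood at 904, 457 and 137 CPM in LV against 201, 74.2 and 40.4 in RV (2.19 ± 0.27, edgeR adjusted p = 0.000506 and 0.279). Its level varied several-fold between hearts, in the same order in both ventricles. The B-type natriuretic peptide gene Nppb read 378, 167 and 200.0 CPM in LV against 133, 51.2 and 92.3 in RV (1.44 ± 0.23, edgeR adjusted p = 0.00151 and 0.316). The slow myosin heavy chain gene Myh7 read 137, 103 and 84.96 CPM in LV against 73.9, 46.6 and 59.4 in RV (0.85 ± 0.13, edgeR adjusted p = 0.00143 and 0.303). Ankrd1, a stretch-responsive cardiac repeat protein, differed by 0.80 (edgeR adjusted p = 0.00078). The Nppb difference was larger at 0 h (2.95), where the means were 281 ± 138 CPM in LV and 36.02 ± 16.7 CPM in RV (SD, n = 3), and it moved toward RV by -1.51 (edgeR adjusted p = 0.0172). The atrial natriuretic peptide gene Nppa (316, 204 and 193 CPM in LV against 547, 78.5 and 149 in RV) and the atrial myosin light chain gene Myl7 (14.4, 19.1 and 38.9 CPM in LV against 82.8, 12.2 and 20.7 in RV) were not called, with edgeR adjusted p = 0.676 and 0.826 in the blocked fit. Both were highest in RV replicate 1. They are themselves members of the atrial marker list and make up much of its high sum in that library. Other members were also highest there, with Myl4 at 139.9, Dkk3 at 33.2 and Sln at 29.6 CPM. Without heart 1 the Myl7 difference was 0.79. Bmp10, which in the adult heart is made by atrial cells, had no count in LV and 165, 1 and 6 counts in RV, which is at least 59.8-fold higher in RV against a floor of 3 counts over the 3 LV libraries. Without heart 1 that bound was 2.38-fold, and how much atrial tissue the pieces held was not tested.

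The window before Acta1 (chr8:123894776-123895025, minus strand) is printed because its CArG box, in capitals, belongs to the same class as those of the immediate-early genes while the gene differed in the opposite direction. A match of letters is a description and not a shown binding site. A CArG box was found in 6 of 28 windows of ventricular sarcomere genes.
Acta1: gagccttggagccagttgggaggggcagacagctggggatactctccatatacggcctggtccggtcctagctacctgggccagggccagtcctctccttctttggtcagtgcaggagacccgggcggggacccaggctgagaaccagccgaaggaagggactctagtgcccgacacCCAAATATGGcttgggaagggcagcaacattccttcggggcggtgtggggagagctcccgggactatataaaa

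Of 27 ventricular sarcomere genes 2 were called toward LV (7.41%, against 2.25% of all genes) and 1 toward RV (3.7%, against 6.53%), with a median of 0.26 and 23 positive signs. Without heart 1, and likewise without heart 2, 5 were called toward LV and none toward RV. Myot, which encodes the Z-disc protein myotilin, read 44.99, 51.2 and 22.3 CPM in LV against 18.9, 17.2 and 8 in RV (1.43 ± 0.12, edgeR adjusted p = 0.000146 and 0.201) without overlap, and Xirp2, an intercalated disc protein gene, read 556, 642 and 272 CPM in LV against 348, 381 and 169 in RV (0.71 ± 0.08, edgeR adjusted p = 0.000411 and 0.423). Its relative Xirp1 was higher in RV in hearts 1 and 2 only, at 240.0, 243 and 311 CPM in LV against 664, 471 and 276 in RV (-0.76 ± 0.25, edgeR adjusted p = 0.0527 and 0.511), and was not called without heart 1 or without heart 2. Of 21 calcium handling genes only the skeletal calsequestrin gene Casq1 passed (4.76%, against 2.25% of all genes toward LV), at 12.2, 7.29 and 4.36 CPM in LV against 9.59, 3.42 and 2.48 in RV (0.69 ± 0.26, edgeR adjusted p = 0.0811 and 0.697), and it was not called with any 1 of the 3 hearts left out. Of 22 potassium channel genes 3 were called toward LV (13.6%, against 2.25% of all genes) and 1 toward RV (4.54%, against 6.53%), where DESeq2 with the block called 1 and 1. The repolarizing channel gene Kcna5 read 42.1, 53.4 and 46.7 CPM in LV against 20.5, 26.98 and 50.7 in RV (0.63 ± 0.18, edgeR adjusted p = 0.0302 and 0.532), with heart 3 in the opposite direction. Kcne1 and Kcnk2 differed by 0.65 and 0.65, with edgeR adjusted p = 0.0722 and 0.0735 in the blocked fit and 0.641 and 0.638 without the block. Kcnd2, the pore subunit of the fast transient outward current, was higher in RV, at 9.47, 18.6 and 10 CPM in LV against 18.3, 40.5 and 8.3 in RV (-0.68 ± 0.19, edgeR adjusted p = 0.0272 and 0.489), heart 3 again differing in direction. Without heart 1 none of the 22 was called with edgeR, and 10 and 2 had an unadjusted blocked p under 0.05 toward LV and RV when all hearts were used. The median of the sarcomere list was 0.16 and that of the calcium list 0.01 without heart 3, whose RV was the lowest of the 6 libraries in cardiomyocyte RNA.

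The other genes with the largest LV-higher differences were of mixed function. The water channel Aqp8 read 3.73, 5.42 and 1.34 CPM in LV against 1.27, 1.42 and 0.185 in RV (1.90 ± 0.28, edgeR adjusted p = 0.00102 and 0.317). Neuritin, Nrn1, read 7.15, 12.03 and 5.31 CPM in LV against 2.37, 2.04 and 2.63 in RV (1.73 ± 0.27, edgeR adjusted p = 0.00146 and 0.215). The G protein subunit gene Gnb3 read 5.95, 8.91 and 5.89 CPM in LV against 2.04, 3.42 and 1.52 in RV (1.60 ± 0.19, edgeR adjusted p = 0.000455 and 0.12). Nrn1 and Gnb3 did not overlap. Cpxm2, a secreted carboxypeptidase-like protein gene, read 34.3, 43.4 and 15.2 CPM in LV against 12.03, 13.3 and 6.78 in RV (1.48 ± 0.10, edgeR adjusted p = 5.68e-05 and 0.307) and did not overlap either. Pdzd3, a PDZ scaffold gene, differed by 1.47 (edgeR adjusted p = 0.00192), and Aplnr, the apelin receptor gene, by 1.67 (edgeR adjusted p = 0.00723), or 2.54 without heart 3. The differences of Aqp8, Nrn1, Gnb3, Cpxm2 and Pdzd3 at 0 h were 1.69, 2.11, 1.58, 1.25 and 1.75, all called there with the block. S100a9, a neutrophil alarmin gene, and the haemoglobin gene Hbb-bt, whose reads are shared with Hbb-bs, complete the list, at 1.65 (edgeR adjusted p = 0.0295) and 1.59 (edgeR adjusted p = 0.0215). Neither was called without heart 1, where edgeR adjusted p = 0.258 and 0.28. Erythroid markers summed to 196, 11.9 and 31.2 CPM in LV against 52.3, 3.96 and 30.1 in RV, highest in LV replicate 1, and the part of residual blood cells in these 2 genes was not tested.

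Genes with the largest RV-higher differences included secreted factors and metabolic enzymes. Areg read 1.45, 0.474 and 0.383 CPM in LV against 5.08, 4.22 and 1.19 in RV (-2.21 ± 0.26, edgeR adjusted p = 0.000455 and 0.372). Follistatin (Fst), an activin antagonist, read 3.15, 2.37 and 1.63 CPM in LV against 21.7, 9.51 and 4.3 in RV (-2.19 ± 0.23, edgeR adjusted p = 0.000291 and 0.24). Fgf23, a phosphate-regulating hormone gene, read 2.56, 1.97 and 5.74 CPM in LV against 15.3, 7.33 and 17.9 in RV (-2.04 ± 0.20, edgeR adjusted p = 0.000258 and 0.206). Serpinb2, a plasminogen activator inhibitor gene, read 1.67, 1.25 and 2.2 CPM in LV against 12.4, 5.82 and 4.48 in RV (-2.09 ± 0.34, edgeR adjusted p = 0.00174 and 0.166). At 0 h the highest mean of these 4 genes was that of Areg in RV, 1.19 ± 0.99 CPM (SD, n = 3). Scn10a, a sodium channel gene, and Drd2, a dopamine receptor gene, differed by -1.96 (edgeR adjusted p = 0.00132) and -1.87 (edgeR adjusted p = 0.00716), and by -1.45 and -2.28 at 0 h. Cyp2e1 (0.586, 0.61 and 2.97 CPM in LV against 11.4, 2.44 and 4.56 in RV), Car3 (0.863, 0.542 and 7.42 CPM in LV against 12.7, 4.98 and 10.3 in RV) and haptoglobin, Hp (3.21, 1.42 and 5.03 CPM in LV against 26.9, 6.09 and 5.96 in RV), which are abundant in fat or liver, differed by -2.21 (edgeR adjusted p = 0.00916), -2.15 (edgeR adjusted p = 0.0244) and -1.85 (edgeR adjusted p = 0.0181). Their differences were larger in hearts 1 and 2 than in heart 3, and those of Car3 and Hp were not called without heart 1. The adipocyte markers Adipoq, Cfd, Cidec and Plin1 were also called higher in RV, between -1.65 and -2.20. The sum of all adipocyte markers was higher in RV chiefly in heart 1 (23.3, 24.2 and 38.7 CPM in LV against 51.4, 24.6 and 36.9 in RV). Much of that sum is Cidea, which was higher in LV (20.23, 22.54 and 21.06 CPM in LV against 18.85, 17.16 and 17.04 in RV). The median difference over members was -2.98, -1.69 and -0.21 in hearts 1, 2 and 3, so that heart 2 also differed toward RV.

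Heat-shock chaperones were called in both directions, with 4 of 35 higher in RV (11.4%, against 6.53% of all genes) and 3 higher in LV (8.57%, against 2.25%). Dnaja1, a cytosolic co-chaperone gene, read 192, 192 and 552 CPM in LV against 371, 403 and 831 in RV (-0.87 ± 0.11, edgeR adjusted p = 0.00061 and 0.559). Hspa2, a chaperone of the HSP70 family, read 11.9, 8.07 and 15.8 CPM in LV against 22.96, 14.5 and 28.7 in RV (-0.89 ± 0.13, edgeR adjusted p = 0.000982 and 0.472). The stress-induced Hspa1a, which shares reads with Hspa1b, differed by -0.61 (edgeR adjusted p = 0.0591) and Hsp90aa1 by -0.60 (edgeR adjusted p = 0.00672). The endothelial family member Hspa12b read 29.5, 20.6 and 5.07 CPM in LV against 11.8, 7.87 and 4.33 in RV (1.09 ± 0.17, edgeR adjusted p = 0.00147 and 0.539). The small heat-shock protein genes Hspb3 and Hspb7 differed by 0.68 (edgeR adjusted p = 0.00675) and 0.59 (edgeR adjusted p = 0.00376). Without heart 3, 7 members were called toward RV and 2 toward LV.

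In metabolism, 5 of 37 hypoxia and glycolysis genes were called higher in RV (13.5%, against 6.53% of all genes) and 1 higher in LV (2.7%, against 2.25%). The median and most signs of the list lay on the LV side, with a median of 0.19, 27 positive signs, and an unadjusted blocked p under 0.05 for 12 toward LV and 8 toward RV. Without heart 3 the median was -0.0024. The lactate and glucose transporter genes Slc16a3 and Slc2a1 read 7.77, 3.19 and 9.14 CPM in LV against 19.3, 7.38 and 15.8 in RV (-1.10 ± 0.14, edgeR adjusted p = 0.000538 and 0.515) and 23.1, 15.5 and 21.9 CPM in LV against 47.5, 22.7 and 31.9 in RV (-0.72 ± 0.10, edgeR adjusted p = 0.000878 and 0.385), the latter under the fold threshold without heart 1 (-0.54). Adrenomedullin, Adm, a vasodilator peptide gene, read 20.8, 20.9 and 28.3 CPM in LV against 43.02, 37.2 and 40.4 in RV (-0.80 ± 0.10, edgeR adjusted p = 0.000455 and 0.342) without overlap. The isoforms of the enzyme that sets fructose 2,6-bisphosphate differed in direction, with Pfkfb1 at -0.87, Pfkfb3 at -0.64 and Pfkfb2 at 0.71. No fatty acid oxidation gene was called among 38 (blocked edgeR, unadjusted p under 0.05 for 1 toward LV and 5 toward RV; DESeq2 with the block, 0), and the median was 0.14. Without heart 3 the median was -0.12 and 3 were called toward RV, whereas 2 were called toward LV without heart 2. The most abundant, Lpl, differed by 0.10 (edgeR adjusted p = 0.5). Fabp3, the next, read 2224, 2359 and 2378 CPM in LV against 1894, 2036 and 1522 in RV and passed the p but not the fold threshold, at 0.36 (edgeR adjusted p = 0.0356). None of 76 nuclear respiratory chain genes was called by either tool, yet 75 had a positive sign and 30 an unadjusted blocked p under 0.05 toward LV, with a median of 0.20. Over all 15093 genes 2773 had such a p toward LV and 2778 toward RV, and 7915 had a positive sign. Within hearts 1, 2 and 3 the median of the respiratory chain list was 0.13, 0.08 and 0.32, largest in the heart whose RV was the lowest of the 6 libraries in cardiomyocyte RNA. The part of that lower level in the list was not tested. For the subunit genes Atp5b and Atp5a1 the difference was 0.14 and 0.26, and -0.13 and -0.02 without heart 3. The 13 mitochondrially encoded genes (median -0.08; mt-Co1 -0.08, mt-Co3 -0.11) and the 78 ribosomal protein genes (median -0.07; Rps2 -0.04, Rplp0 -0.05) held no call by either tool, with 1 and 7 at an unadjusted blocked p under 0.05, all toward RV.

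Of 19 clock genes 6 were higher in RV (31.6%, against 6.53% of all genes) and none higher in LV. The repressor genes Cry2 and Per2 read 23.1, 25.6 and 38.1 CPM in LV against 45.8, 46.3 and 51.8 in RV (-0.76 ± 0.10, edgeR adjusted p = 0.000603 and 0.256) and 9.59, 7.25 and 12.2 CPM in LV against 13.8, 13.3 and 19.3 in RV (-0.68 ± 0.11, edgeR adjusted p = 0.00174 and 0.389). The nuclear receptor Nr1d1 read 53.1, 46.9 and 139.8 CPM in LV against 133, 124 and 137 in RV (-0.90 ± 0.22, edgeR adjusted p = 0.0138 and 0.467), with heart 3 at the same level in both ventricles, and Nfil3, which opposes D-box activation, read 30.9, 34.1 and 47.3 CPM in LV against 69.5, 59.1 and 56.3 in RV (-0.74 ± 0.17, edgeR adjusted p = 0.00916 and 0.454). The activators Arntl (0.04) and Clock (0.12) were not called. Without heart 1, 2 clock genes were called, Nr1d1 and Nfil3 not among them. Of 42 collagens and matrix genes 6 were higher in RV (14.3%, against 6.53% of all genes). Ccn2 (also named Ctgf), a matricellular target of stretch and YAP signalling, read 118, 95.7 and 141 CPM in LV against 279, 215 and 160.5 in RV (-0.87 ± 0.17, edgeR adjusted p = 0.00455 and 0.279), the protease inhibitor Timp1 30.2, 17.3 and 51.8 CPM in LV against 70.9, 25.4 and 88.98 in RV (-0.87 ± 0.12, edgeR adjusted p = 0.000668 and 0.47), and the protease Mmp3 12.7, 6.58 and 9 CPM in LV against 24.4, 10.8 and 17.4 in RV (-0.88 ± 0.12, edgeR adjusted p = 0.000827 and 0.312). Comp, a cartilage and tendon matrix gene, read 4.62, 3.42 and 4.4 CPM in LV against 12.3, 4.58 and 13.2 in RV (-1.18 ± 0.20, edgeR adjusted p = 0.00214 and 0.201). The fibrillar collagen genes Col1a1 (-0.02) and Col3a1 (-0.05) were not called.

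Markers of other cell types differed between the pieces of LV and RV, and their part in the results above was not tested. Over all genes tested the blocked fit called 6.53% toward RV and 2.25% toward LV. A single call in lists this short is therefore not read as a difference of that cell type. Hearts without storage showed some of this too. List medians at 0 h and 8 h were -1.13 and -0.68 for endocardial, -0.32 and -0.30 for fibroblast and -0.89 and -0.50 for Schwann cell markers. Those of cartilage and valve markers were -0.48 and -1.02. Endothelial markers had a median of -0.04 with 2 of 11 called, von Willebrand factor, Vwf, at 117, 72.8 and 115 CPM in LV against 247, 149 and 303 in RV (-1.17 ± 0.09, edgeR adjusted p = 0.000146 and 0.115) and Cldn5 at -0.77 (edgeR adjusted p = 0.00327). Endocardial markers were higher in RV in 3 of 6, including Plvap (-0.79) and Nfatc1 (-0.81), and summed to 74.96, 64.1 and 71.1 CPM in LV against 127, 95.8 and 115 in RV. Fibroblast markers summed to 3035, 2175 and 2645 CPM in LV against 4472, 2663 and 3408 in RV, with 1 of 9 called (Tcf21, -0.81), and macrophage markers to 522, 352 and 314 CPM in LV against 702, 401 and 377 in RV, with 3 of 12 called (Cd163 at -0.94, Mrc1 at -0.62 and Lyve1 at -0.59). Cartilage and valve markers had 5 of 6 called toward RV, among them Sox9 (-1.15) and Prg4 (-0.88), and summed to 49.2, 29.3 and 58.6 CPM in LV against 142, 42.1 and 96.2 in RV. Epicardial markers (Wt1 at -0.92) had 2 of 8 called, the conduction markers 2 of 7 (Cntn2 at -1.38 among them), adipocyte markers 4 of 6 (none without heart 1), smooth muscle 1 of 5, Schwann cell markers 1 of 6 and atrial markers 1 of 7 (Bmp10), all toward RV. Erythroid markers had 3 of 5 called toward LV, and 0 of 5 without heart 1. Neutrophil markers were called in both directions, with Csf3r and Mmp9 toward RV (-0.73 and -1.23) and S100a8 and S100a9 toward LV, the last 2 not without heart 1, and lymphocyte markers were nearly absent, at a sum of at most 1.94 CPM. Pericyte markers held no call with edgeR or DESeq2 (1 of 7 at an unadjusted blocked p under 0.05), nor did ventricular cardiomyocyte markers, of which 6 of 10 had an unadjusted blocked p under 0.05 toward LV.

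**Figure D4:**
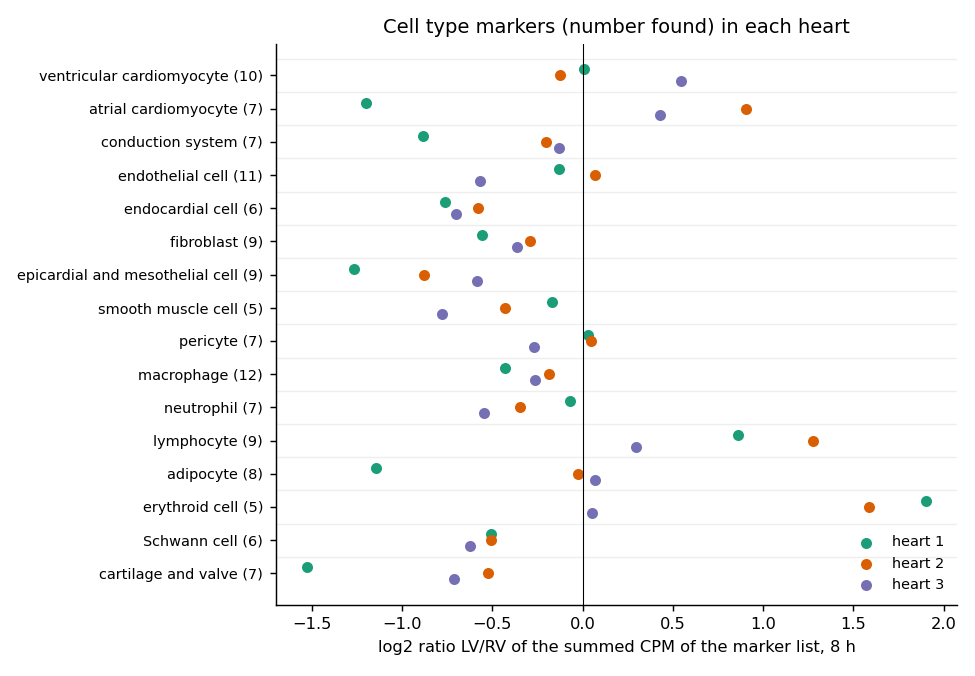
Log2 ratio LV over RV of the summed CPM of 16 marker lists in each of 3 hearts after 8 h, with the number of markers found in brackets. Sums of endocardial, fibroblast, epicardial, Schwann, smooth muscle, macrophage, neutrophil, conduction, and cartilage and valve markers lie left of 0 (higher in RV) in all 3 hearts. Much of the epicardial sum is Wt1 and much of the neutrophil sum is Csf3r. The median over members was positive for epicardial markers in heart 3 (0.81). It was also positive for neutrophil markers in hearts 1 and 2 (0.32 and 0.02) and smooth muscle markers in heart 1 (0.03). Atrial markers do so in heart 1 alone, and cardiomyocyte markers lie right of 0 chiefly in heart 3, where they summed to 45510 CPM in LV and 31160 CPM in RV.

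Whether the ventricle difference changed between hearts perfused without storage and hearts perfused after 8 h was tested as the difference of the contrasts, which share no library. In the blocked fit 150 genes (0.994%) moved toward LV between 0 and 8 h and 712 (4.72%) moved toward RV. Against 4 h the counts were 5 (0.0331%) and 54 (0.358%). Without the block edgeR called none. An unadjusted p below 0.05 was then reached by 628 genes against 0 h and by 215 against 4 h. Of the 339 genes higher in LV at 8 h, 60 were called higher in LV at 0 h and 72 differed from 0 h, and of the 986 higher in RV, 81 were called the same way at 0 h, 23 the opposite way, and 481 differed from 0 h. These last counts reuse the 8 h libraries that chose the genes and are a description.

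Immediate-early, NF-kB and interferon-induced genes were among those that moved toward RV. Of the 40 immediate-early genes 36 moved toward RV between 0 and 8 h, against 4.72% of all genes. At 0 h their median difference was 0.46, with 9 called higher in LV and 0 in RV. Over all 15093 genes 126 and 153 were called at 0 h. At 4 h the median was -0.15 and 3 were called higher in RV, against 165 of all genes. The summed level of the list in LV went from 6737 ± 2443 CPM (SD, n = 3) at 0 h to 12760 ± 1890 at 4 h and stood at 8037 ± 4238 at 8 h, while in RV it was 4541 ± 1619, 12330 ± 2353 and 14880 ± 2497. Atf3 went from 369 ± 212 to 914 ± 177 and 499.5 ± 381 CPM in LV and from 207 ± 108 to 964 ± 192 and 1071 ± 273 CPM in RV, and its ventricle difference moved by -2.14 (edgeR adjusted p = 0.00201). Of the 52 NF-kB and TNF response genes 29 moved toward RV (median at 0 h 0.08, at 4 h -0.31). Of the 74 interferon-induced genes 33 did (median at 0 h 0.14, at 4 h -0.03), again against 4.72% of all genes. Ptgs2 went from 23.1 ± 11.9 to 111 ± 40 CPM in LV and from 17.9 ± 9.42 to 273 ± 31.8 CPM in RV, with a shift of the ventricle difference of -1.72 (edgeR adjusted p = 0.00131). Csf3 stood at 0.355 ± 0.11 CPM (LV) and 0.469 ± 0.157 CPM (RV) at 0 h and at 18.6 ± 13.2 CPM (LV) and 58.4 ± 24.5 (RV) at 8 h. Its shift was -1.36 (edgeR adjusted p = 0.126) and did not pass. Ptgds, Gnb3, Acta1, Myot and Xirp2 did not pass the test of the shift, with differences of 1.45, 1.58, 2.60, 1.61 and 0.77 at 0 h and 1.42, 1.60, 2.19, 1.43 and 0.71 at 8 h.

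**Figure D5:**
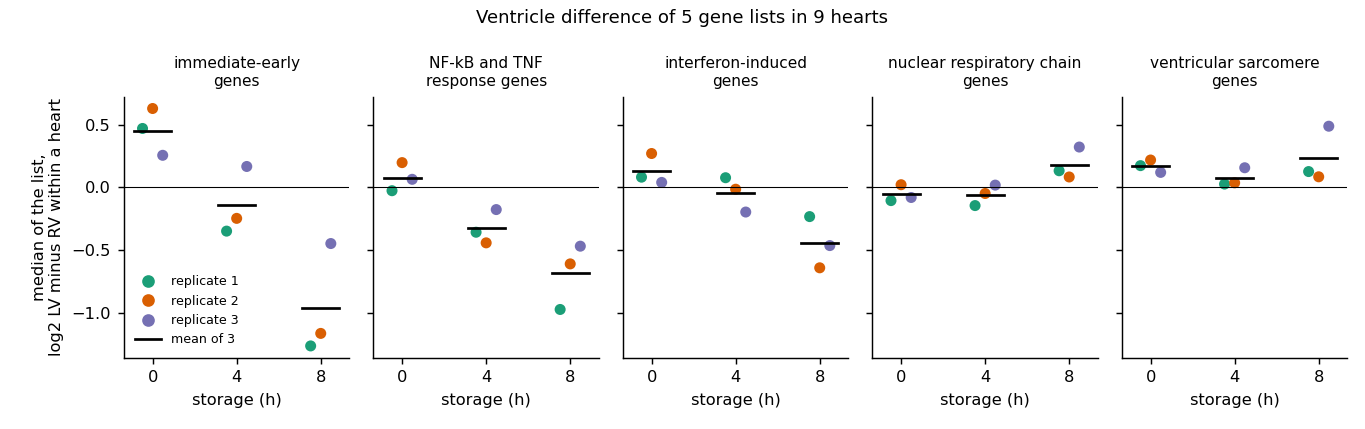
Median log2 difference LV minus RV of 5 gene lists within each of 9 hearts, by storage time, with the mean of 3 hearts as a black bar (a replicate number names different hearts at different times). For immediate-early genes the medians were 0.47, 0.63 and 0.26 at 0 h and -1.27, -1.17 and -0.45 at 8 h, and those of the NF-kB and TNF list moved the same way.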

How the data were processed

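Mouse ventricular RNA was sequenced in 18 libraries, of which the 6 of 8 h are described here and all 18 entered the fits. The authors pseudoaligned reads with kallisto (named in the submitters' processing notes) to GRCm38 and deposited, per transcript and library, estimated counts, effective lengths and TPM values. The release of the transcript set is not given in the sources used here. Transcripts were matched to genes through GENCODE M21 identifiers (110203 of 111462, with 1259 unmatched at 0.31% to 0.383% of counts) and the estimated counts were summed per gene and rounded. TPM values were not tested. Genes with low counts were removed with filterByExpr, leaving 15093 of 34989. edgeR 4.0.16 in R 4.3.3 gave quasi-likelihood tests with TMM factors over all 18 libraries, with group means (12 residual degrees of freedom) or with the heart, storage time by replicate number, as a block (6). DESeq2 1.42.0, RLE factors, length offsets, no filter, the 8 h libraries alone, left-out libraries and left-out hearts were the alternatives. The numbers were taken to pair LV and RV because every same-number correlation exceeded 0.1 (0.53 to 0.70 at 8 h). LV replicate 2 with RV replicate 1 also exceeded it, at 0.16, so the threshold alone does not set same numbers apart. Scripts were tested on simulated data.

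Gene lists and members were chosen with earlier results of these data known. Genes named by rule were those called without the block, the 12 largest protein-coding differences in each direction with a mean of at least 2 CPM and the same sign in all 3 hearts, the genes of the measured proteins, and up to 4 called members of each list or, where none was called, the 2 most abundant, with Tbx5, Hand1, Hand2, Irx4, Nppa, Nppb and Myl7. Other list members and markers named in the text were chosen after their values were seen. Pseudoalignment divides reads of near-identical genes between them, so single members of the Hbb, Hba and Hspa1 families are less certain. Some genes that the rule names are not reported here. The labels and the methods differ in the age of the mice and in the volume of HTK.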

Additional observations from a re-analysis of the deposited data

Results flagged for a closer look

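Between 0 and 8 h of storage the LV minus RV difference moved toward LV in 150 genes and toward RV in 712 in the blocked edgeR fit (Benjamini-Hochberg adjusted p below 0.1 for the difference of the contrasts, fold above 1.5). For genes named in the report that were called in this test, the change of the log2 difference, 8 h minus 0 h, is given in parentheses. Immediate-early genes moved toward RV in Nr4a2 (-2.19), Atf3 (-2.14), Fosl1 (-2.1) and Egr3 (-2), and so did the matricellular gene Ccn2 (-1.48). Cytokine and signalling genes moved the same way in Il1a (-1.84), Ptgs2 (-1.72), Lif (-1.5), Il6 (-1.33), Tnf (-1.18), Ccl2 (-0.878) and Myd88 (-0.841). Interferon-induced genes did so in Isg15 (-1.04), Oasl1 (-1.01) and Gbp2 (-0.922). Secreted and adhesion genes did so in Fgf23 (-2.14), Flrt3 (-1.68), Fst (-1.57), Areg (-1.39) and Timp1 (-0.878), and chaperone, metabolic and clock genes in Dnaja1 (-1.15), Hspa2 (-0.803), Slc16a3 (-1.63), Adm (-0.911), Slc2a1 (-0.7) and Nfil3 (-1.26). Of the cardiac muscle genes Xirp1 (-1.52), Nppb (-1.51) and Myh7 (-0.632) moved toward RV. The transcription factor genes Hand2 (0.832) and Irx4 (0.62) and the chaperone gene Hspa12b (1.17) moved toward LV. Without the block the same test called no gene, and the contrasts share no library.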

How the results depend on the processing

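Without the block the counts of 2 genes higher in LV and 3 higher in RV became 0 and 0 with RLE size factors, with length offsets, with the 8 h libraries alone and at an adjusted p under 0.05, and 36 and 140 with DESeq2. Without mitochondrial genes the count toward RV was 0. Leaving out 1 library gave 0 to 76 toward LV and 0 to 286 toward RV, the highest without LV replicate 3. The replicate block gave 339 and 986. With the block the LV count was 169 with the 8 h libraries alone and 210 with DESeq2, and the RV count ranged from 618 (without heart 1) to 1096 (without heart 3). The counts of genes whose difference changed, 0 without the block, were 150 and 712 against 0 h and 5 and 54 against 4 h with it. Signs turned for Atp5b with length offsets (-0.031 with and without the block) and for Nppa with the replicate block (0.31). Leaving out libraries turned the sign, over the ranges given, of Myl7 (-1.20 to 0.55), Gsdmd (-1.14 to 0.18), Atp5b (-0.16 to 0.33), Atp5a1 (-0.0987 to 0.46), Casp1 (-1.60 to 0.87), Gbp2 (-2.46 to 0.78), Pycard (-0.32 to 0.0881), Isg15 (-2.16 to 0.47), Kcne1 (-0.065 to 1.31), Nppa (-0.54 to 1.06), Oasl1 (-2.13 to 0.57), Rps2 (-0.14 to 0.14), mt-Co1 (-0.13 to 0.0444), mt-Co3 (-0.22 to 0.0208), Rplp0 (-0.13 to 0.0271), Hbb-bt (-0.0648 to 2.60) and Igtp (-2.09 to 0.57) without the block, and leaving out hearts that of Tbx5 (-0.57 to 0.0161), Myl7 (-1.11 to 0.79), Atp5b (-0.13 to 0.29), Atp5a1 (-0.0195 to 0.42), Nppa (-0.21 to 0.87), Rps2 (-0.0858 to 0.021) and mt-Co1 (-0.20 to 0.0372) with it. The cause of these changes was not tested. Of the other alternatives 980 without and 754 with the block kept direction and side of the threshold, 112 without the block moved past it, and 35 and 36 no longer passed it.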

Other observations

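Among genes with symbols that start with Zfp, Zbtb, Zkscan or Zscan, mostly zinc finger transcription factors, 34 were among the 339 genes higher in LV and 15 among the 986 higher in RV with the block, of 427 such genes among the 15093 tested. This group was chosen after the values were seen, and no test was made of it.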
